A study of Mus musculus with 36 samples.

Results

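The genes described here code for the receptors that let neurons sense glutamate, GABA, glycine and acetylcholine. They were chosen by gene symbol alone, as every Gria, Grik, Grid, Grin, Grm, Gabr, Glra, Glrb and Chrn gene in the files, which gave 66 of the 21761 genes listed. RNA was sequenced from 36 cultures of mouse motor neurons made from embryonic stem cells of the Hlxb9-GFP1Tmj line. In these cells the mouse HB9 promoter, active in motor neurons and some other spinal cells, drives eGFP, or eGFP and CD2, and cells bearing CD2 were taken on a magnetic column before plating. After plating, the cultures received, for 1 or 3 days, medium taken from astrocytes of newborn pups that were non-transgenic (NTg), over-expressed SOD1 with the G93A mutation found in familial amyotrophic lateral sclerosis (mSOD1), or over-expressed wild-type SOD1 (wtSOD1). There were 6 libraries for each medium and day, numbered by experiment, and all media held added glucose, GDNF, BDNF and CNTF. The astrocytes came from spinal cord or cortex and were 95% positive for GFAP, but which source gave which medium is not in the labels. Whether an experiment number stands for a separate differentiation is not given, so p-values measure the spread between these libraries.

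Fast excitation in the spinal cord runs through AMPA receptors, built from Gria1 to Gria4, together with kainate (Grik) and NMDA (Grin) receptors, while metabotropic glutamate receptors (Grm) act through G proteins. Fast inhibition runs through GABA-A receptors, pentamers of alpha, beta and gamma or other Gabr subunits, and through glycine receptors, built from Glra subunits and Glrb. Nicotinic receptors of neurons (Chrna and Chrnb genes) and of the muscle endplate (Chrna1, Chrnb1, Chrnd, Chrng and Chrne) are acetylcholine-gated channels. Motor neurons are known for AMPA receptors whose calcium permeability depends on the GluA2 subunit made from Gria2. Its messenger is recoded by the RNA editing enzyme ADARB1 at 1 codon in the pore loop, and receptors without edited GluA2 let calcium through.

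The pore-loop coding sequences of the AMPA receptor genes are shown because they hold the codon that is edited in Gria2 messengers, which in the genome codes for glutamine in all 4 genes. Each line holds 45 coding bases of GENCODE M21 on GRCm38, 5′ to 3′ on the strand of the gene, with the codon of the editing site in capitals.
Gria1: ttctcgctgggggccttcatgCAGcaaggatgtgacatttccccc
Gria2: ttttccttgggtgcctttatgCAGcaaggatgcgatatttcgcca
Gria3: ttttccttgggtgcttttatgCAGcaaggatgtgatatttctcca
Gria4: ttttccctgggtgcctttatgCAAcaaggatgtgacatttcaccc
The stretches lie at chr11:57243073-57243117 (plus strand, exon 11) for Gria1, chr3:80706890-80706934 (minus strand, exon 11) for Gria2, chrX:41610244-41610288 (plus strand, exon 12) for Gria3 and chr9:4464116-4464160 (minus strand, exon 12) for Gria4. Gria1 differs from Gria2 at 9 of the 45 bases, Gria4 at 6 and Gria3 at 3. The codon is CAG in Gria1, Gria2 and Gria3 and CAA in Gria4, and gene-level read counts hold no measure of how many Gria2 messengers were edited.

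Library totals ran from 4.39 to 88.9 M reads, and levels are given in CPM, read counts scaled to a common library total after TMM adjustment. Of the 66 genes, 51 had enough reads to be tested and 15 did not. The 15 had 2 to 127 reads over all 36 libraries, and their highest group mean was 0.65 CPM. These were the GABA-A genes Gabra6, Gabrd, Gabrp, Gabrr1 and Gabrr2, the NMDA gene Grin2c, the nicotinic genes Chrna2, Chrna6, Chrna9, Chrna10 and Chrnb3, and the endplate genes Chrna1, Chrnd, Chrne and Chrng. Among them are Gabra6, known from cerebellar granule cells, and Chrne, of the mature endplate.

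Levels of different genes were compared per kb of exon. On that scale the mean level over all libraries was 30.7 CPM per kb for the kainate subunit Grik3, the highest of the genes reported here, 29.6 for Gria4 and 28.4 for Gria2. The next were Grik1 (27.6 CPM per kb), Grik5 (27.2), Gria3 (20.5), Glra2 (19.6), the glycine receptor alpha subunit of immature neurons, and Chrna4 (16.4), the partner of Chrnb2 (13.5) in the common neuronal nicotinic receptor. Gabrb2, a GABA-A beta subunit, stood at 13.7, Chrna7 at 11.6 and Grin1, the obligatory NMDA subunit, at 9.84 CPM per kb.

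Ionotropic glutamate receptor genes together held 53.2% ± 0.77 (SD, n = 6) of the receptor level per kb in NTg medium on day 1. GABA-A and glycine receptor genes held 29.2% ± 1.2, nicotinic genes 13.5% ± 0.78 and metabotropic glutamate receptor genes 4.04% ± 0.38. Within the first group kainate genes (24.2%) and AMPA genes (22.6%) outweighed NMDA (3.603%) and delta (2.84%) genes. On day 3 in the same medium the ionotropic glutamate share was 49.7% ± 0.62, the GABA-A and glycine share 34.2% ± 0.87 and the nicotinic share 11.4% ± 0.67. The order of classes depended on the length used: per kb of coding sequence the day 1 share was 19.6% for kainate, 24.1% for AMPA and 30.2% for GABA-A genes, which was 22.2% per kb of exon.

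The cultures themselves differed between days. In NTg medium all 10 motor neuron markers fell from day 1 to day 3 (median log2 difference -1.47), among them Mnx1, the gene of HB9, from 112 to 34.6 CPM and Chat, the acetylcholine-making enzyme, from 223 to 81.8 CPM. All 9 pan-neuronal markers fell as well (median -0.73). Astrocyte markers (7 of 8, median 1.53), markers of dividing progenitors (7 of 8, 1.00) and mesenchyme markers (7 of 7, 1.47) rose. Over all genes tested 30.8% rose and 30.8% fell. The summed pan-neuronal level was 8076 to 9368 CPM on day 1 and 4133 to 6363 CPM on day 3, and the summed astrocyte level 175.6 to 237.4 and 563.9 to 779.5 CPM. Gfap itself averaged 0.212 CPM on day 1 and 1.02 CPM on day 3, and the microglial gene Aif1 was at 0.282 and 0.264 CPM. Among the 8 microglial markers, P2ry12 (11.4 CPM), Csf1r (3.66 CPM) and Itgam (1.65 CPM) stood higher than Aif1 on day 1. On day 3 Csf1r was at 0.271 and Itgam at 0.607 CPM. The part of these shifts in the receptor results between days was not tested, and in bulk RNA fewer cells of a type and less RNA per cell cannot be told apart.

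From day 1 to day 3 in NTg medium, 12 of the 51 receptor genes tested rose and 23 fell (edgeR, adjusted p below 0.05), beside 61.6% of all genes tested that passed in either direction (30.8% higher and 30.8% lower). The members' share, 68.6%, was near that background. Their median log2 difference was -0.22 and that of all genes was -0.00. In mSOD1 medium 17 rose and 13 fell, beside 56.5% of all genes (28.4% higher and 28% lower), with a median of 0.06. In wtSOD1 medium 15 rose and 23 fell, beside 61.8% of all genes (31.1% higher and 30.7% lower), with a median of -0.24. In all 3 media 11 receptor genes rose and 12 fell, 5 passed in no medium, and none rose in 1 medium and fell in another. The same counts over all genes were not made, so whether these are unusual cannot be said.

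**Figure D1:**
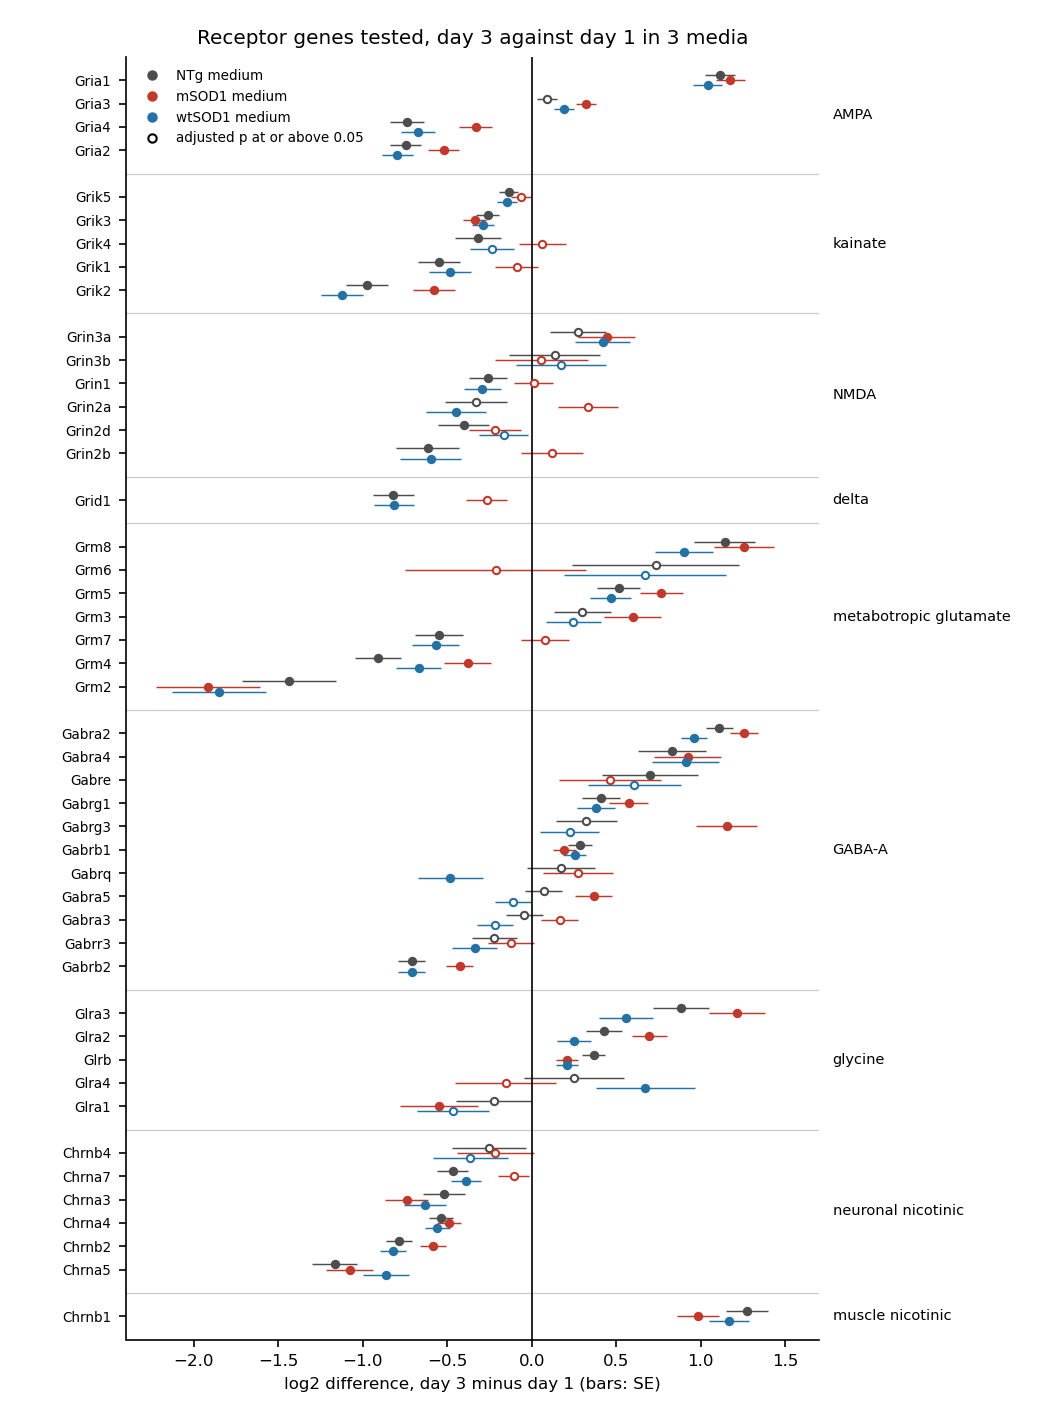
Log2 difference between day 3 and day 1 for 46 of the 51 receptor genes tested, by receptor class, in the 3 media, with the standard error as a bar and filled points where the adjusted p was below 0.05. Gria1, Gabra2, Grm8 and Chrnb1 lie near or above 1 in every medium, Grik2, Chrna5 and Grm2 near or below -0.5 in every medium.

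The AMPA subunits went in different directions. Gria1, the subunit most tied to activity-dependent insertion at synapses, had its lowest, median and highest NTg library at 24.5, 30.7 and 35.8 CPM on day 1 and at 61.3, 65.2 and 71.6 CPM on day 3. The days did not overlap, and Gria1 rose by 1.11 ± 0.09 on the log2 scale (edgeR adjusted p = 8.96e-14). It also rose in mSOD1 medium (1.17 ± 0.09) and in wtSOD1 medium (1.04 ± 0.09). Gria2 ran from 345 to 411 CPM on day 1 (median 359) and from 192 to 258 CPM on day 3 (median 222). Every NTg library of day 3 lay below every one of day 1, and Gria2 fell by 0.75 ± 0.09 (edgeR adjusted p = 1.25e-08), by 0.52 ± 0.09 in mSOD1 medium and by 0.79 ± 0.09 in wtSOD1 medium. Gria4, a subunit of fast-gating receptors, ran from 210 to 258 CPM and then from 116 to 162 CPM. It fell by 0.74 ± 0.10 in NTg, 0.33 ± 0.10 in mSOD1 and 0.67 ± 0.10 in wtSOD1 medium. In mSOD1 medium the days overlapped for Gria2 and for Gria4. Gria3 was the steadiest, with 109 ± 5.6 CPM on day 1 and 116 ± 2.9 CPM on day 3 in NTg medium (SD, n = 6), a difference of 0.09 ± 0.06 that did not pass (edgeR adjusted p = 0.193). It rose in mSOD1 medium by 0.32 ± 0.06 and in wtSOD1 medium by 0.19 ± 0.06.

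**Figure D2:**
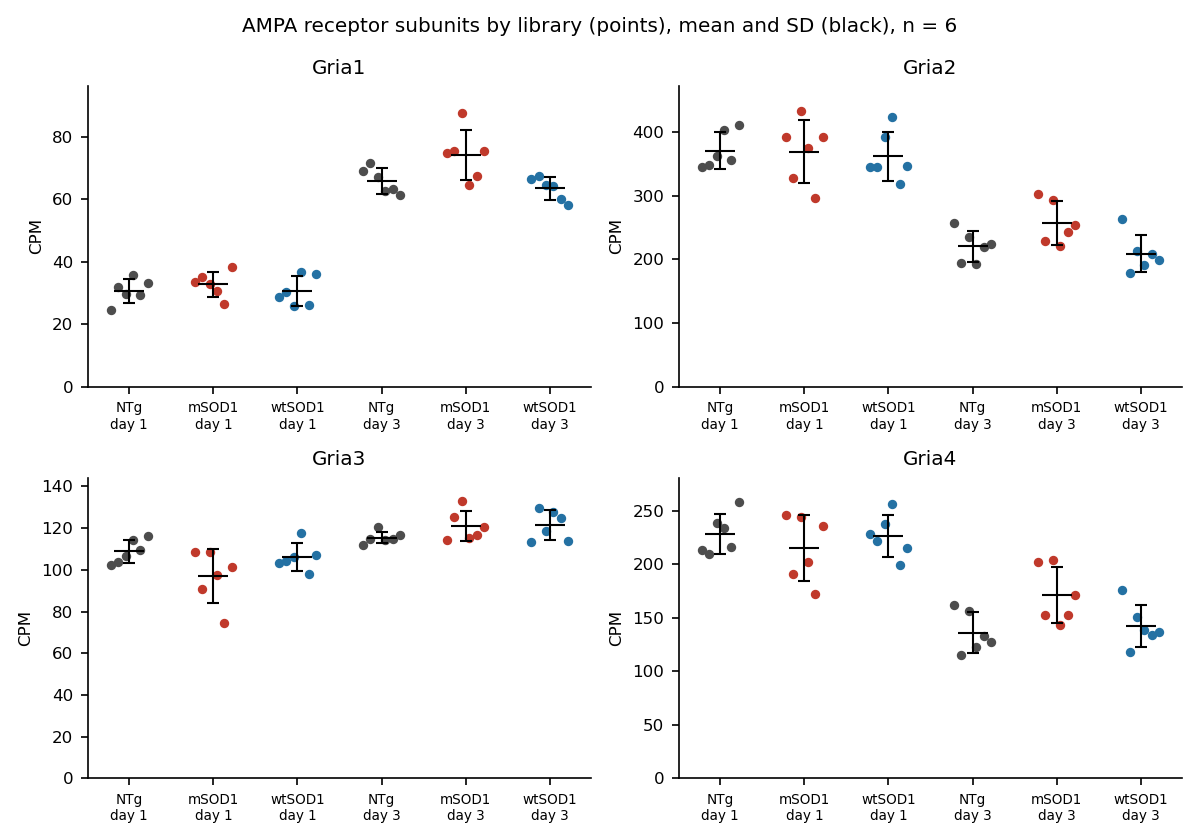
Level of each AMPA receptor gene in CPM, 1 panel per gene, in the 6 groups of medium and day, with libraries as points and the mean and SD in black. Gria1 is higher in every library of day 3 than in any of day 1. Gria2 and Gria4 are lower on day 3 on average, with days that overlap in mSOD1 medium. Gria3 stays between 74.4 and 133 CPM throughout.

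The share of AMPA subunit reads that came from Gria2 compares genes within a library, so the library's total does not enter it. In the 6 NTg libraries of day 1 it was 50.4, 50.2, 49.2, 51.2, 50.0 and 50.2%, and in those of day 3 it was 42.9, 39.2, 40.5, 39.1, 41.5 and 42.3%. All day 3 values lay under all day 1 values, and the means were 50.2% ± 0.63 and 40.9% ± 1.6 (SD, n = 6), with 3470 to 69043 AMPA reads behind each library of day 1 in any medium. The difference of -9.29 percentage points had an exact permutation p of 0.00216 (two-sided), the smallest that 6 against 6 libraries can give, and 0.00649 after Benjamini-Hochberg adjustment over 9 comparisons of groups. In mSOD1 medium the share was 51.7% ± 1.1 on day 1 and 41.2% ± 1.5 on day 3, a difference of -10.5 points, and in wtSOD1 medium 49.9% ± 1.0 and 38.8% ± 2.3, a difference of -11.0 points. Both had the same exact permutation p and adjusted p as NTg medium, with no overlap and a lower share in 6 of 6 same-numbered pairs.

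The shares of Gria1 and Gria3 were higher on day 3, and that of Gria4 was lower. In NTg medium the Gria1 share was 4.15% ± 0.38 on day 1 and 12.3% ± 1.1 on day 3, the Gria3 share 14.8% ± 0.44 and 21.6% ± 1.7, and the Gria4 share 30.9% ± 0.94 and 25.2% ± 1.5. Per kb of exon, which allows a comparison of levels between genes, Gria2 made up 36.5% ± 0.56 of the AMPA level on day 1 and 27.9% ± 1.4 on day 3, when Gria3 (28.4% ± 2.0) and Gria4 (28.6% ± 1.9) stood at the same height within their spread. That equality depended on the length used. Per kb of coding sequence the Gria2 share was 50.6% and 41.3%, and on day 3 Gria3 held 21.7% and Gria4 24.9%.

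Between media the Gria2 share differed by little. On day 1 it was higher in mSOD1 than in wtSOD1 medium by 1.85 points (exact permutation test, adjusted p = 0.039, higher in 6 of 6 pairs) and than in NTg medium by 1.49 points (adjusted p = 0.0468, exact permutation test, higher in 5 of 6 pairs). In both comparisons the groups overlapped, and both calls were lost in 4 of the 6 fits that leave out 1 experiment. The call against wtSOD1 was lost without experiment 2, 4, 5 or 6 and that against NTg without experiment 2, 3, 5 or 6, with adjusted p up to 0.143 and 0.157 in the exact permutation test. With pairs of the same experiment number as the replicate block the difference from NTg no longer passed (exact sign-flip test, adjusted p = 0.0804). On day 3 the share in mSOD1 medium differed from NTg by 0.28 points (exact permutation test, adjusted p = 0.755). The share in wtSOD1 medium was lower by 2.11 points than in NTg (adjusted p = 0.117) and by 2.38 points than in mSOD1 medium (adjusted p = 0.101), neither past the threshold in the exact permutation test. Without experiment 1 the difference of 2.63 points between mSOD1 and wtSOD1 passed (exact permutation test, adjusted p = 0.0357). With the replicate block both had an adjusted p of 0.0469 in the exact sign-flip test, with wtSOD1 lower in 6 of 6 pairs.

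**Figure D3:**
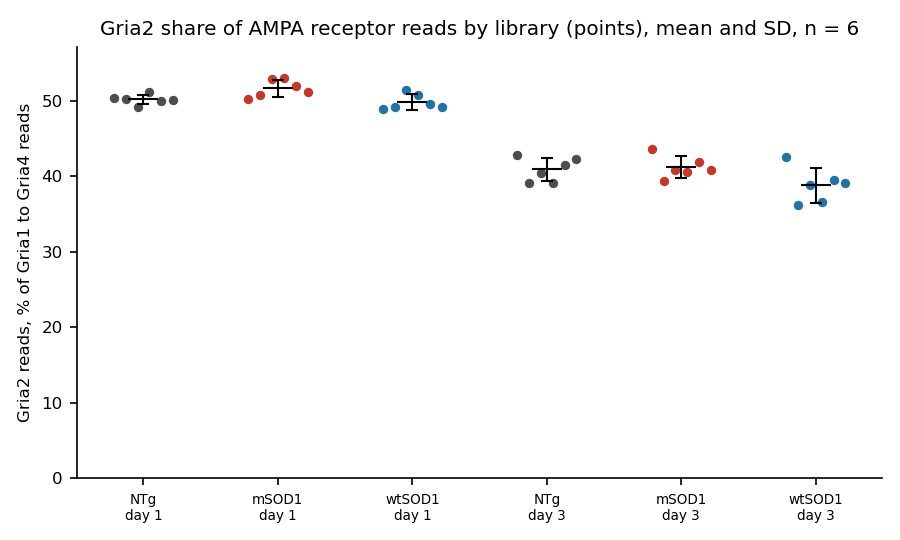
Reads of Gria2 as a percentage of the reads of Gria1 to Gria4 in each library (points), with the mean and SD of 6 libraries in black, for 3 media on 2 days. The 18 libraries of day 1 lie between 48.9 and 53.1% and the 18 of day 3 between 36.3 and 43.7%.

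Of the 3 adenosine deaminase genes, Adarb1, the enzyme of the Gria2 site, fell from 35.7 ± 3.5 to 26.1 ± 2.9 CPM in NTg medium (log2 -0.43 ± 0.08, edgeR adjusted p = 2.65e-05). Adar fell by 0.31 ± 0.05, and Adarb2 stood at 223 and 207 CPM, a difference that did not pass. In mSOD1 medium 1 of the 3 fell, in wtSOD1 medium 2, beside 28% and 30.7% of all genes.

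Auxiliary proteins set the gating and the surface level of AMPA and kainate receptors. In NTg medium 5 of their 15 genes tested rose and 6 fell, with a median log2 difference of -0.03. Over all genes tested 30.8% rose and 30.8% fell. Cpt1c, whose product binds GluA1 in the endoplasmic reticulum, rose from 32.3 ± 3.3 to 63.0 ± 3.4 CPM and Shisa9 from 21.8 ± 1.9 to 38.4 ± 3.7 CPM. The cornichon gene Cnih2 fell from 66.0 ± 7.4 to 36.6 ± 4.9 CPM. Of 20 scaffold genes of glutamate synapses, 16 fell and 2 rose, beside those same shares of all genes, with a median of -0.48. Homer2 fell by 0.94 ± 0.09 and Grip2, which binds GluA2, by 0.96 ± 0.09, while Dlg1, which binds GluA1, rose from 41.7 to 68.9 CPM.

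All 5 kainate receptor genes fell in NTg medium, where 30.8% of all genes fell. Grik2 ran from 68.9 to 85.2 CPM (median 77.8) on day 1 and from 34.8 to 46.3 CPM (median 37.3) on day 3. Its 2 days did not overlap, and it fell by 0.98 ± 0.12 (edgeR adjusted p = 2.04e-08) and by 1.12 ± 0.12 in wtSOD1 medium. Grik1 fell by 0.55 ± 0.13, Grik4 by 0.32 ± 0.13, Grik3 by 0.26 ± 0.07 and Grik5 by 0.14 ± 0.06. In mSOD1 medium only Grik2 (-0.58 ± 0.12) and Grik3 (-0.34 ± 0.07) passed, and Grik1 stood at 118 ± 18 and 111 ± 25 CPM.

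Among NMDA receptor genes 3 of 6 tested fell in NTg medium and none rose, beside 30.8% of all genes in each direction. Grin2b, the fetal GluN2 subunit, ran from 26.2 to 38.5 CPM on day 1 and from 17.2 to 25.7 CPM on day 3. These ranges did not overlap, and it fell by 0.62 ± 0.18 (edgeR adjusted p = 0.0045). Grin2d fell by 0.40 ± 0.15 and Grin1 by 0.26 ± 0.11, the latter close to the threshold (edgeR adjusted p = 0.0454). Grin2a, the subunit that gains on Grin2b as circuits mature, was at 15.6 ± 2.4 and 12.03 ± 2.2 CPM and did not pass, and its share of Grin2 reads was 28.9% ± 2.2 and 32.2% ± 1.7. In wtSOD1 medium Grin1 (-0.29 ± 0.11), Grin2a (-0.45 ± 0.18) and Grin2b (-0.60 ± 0.18) fell. In mSOD1 medium none of Grin1, Grin2a, Grin2b and Grin2d passed, and Grin3a rose there by 0.44 ± 0.17 and in wtSOD1 medium by 0.42 ± 0.16. Reads of Grin1 and Grin2b can include antisense transcripts and those of Grin3b the overlapping gene Tmem259, since the sources used here do not say whether the libraries kept strand.

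Grid1, a delta receptor that binds cerebellins at synapses, fell by 0.82 ± 0.12 in NTg and by 0.81 ± 0.12 in wtSOD1 medium. Its NTg libraries ran from 30.9 to 40.8 CPM on day 1 and from 16.2 to 20.6 CPM on day 3. In mSOD1 medium the difference was -0.27 ± 0.12 and did not pass (edgeR adjusted p = 0.0569).

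Metabotropic glutamate receptors split by gene. Grm8, a presynaptic group III receptor, ran from 6.41 to 11.0 CPM on day 1 and from 13.8 to 19.6 CPM on day 3 in NTg medium. The days did not overlap, and it rose by 1.14 ± 0.18 (log2, edgeR adjusted p = 1.17e-06). Grm5, a group I receptor that raises calcium, rose by 0.52 ± 0.13, by 0.77 ± 0.13 in mSOD1 and by 0.47 ± 0.12 in wtSOD1 medium. Grm4 and Grm7, both group III, fell by 0.91 ± 0.14 and 0.55 ± 0.14. Grm2 fell from 2.32 ± 0.76 to 0.883 ± 0.42 CPM in NTg medium (log2 -1.43 ± 0.28) and by 1.91 ± 0.31 and 1.85 ± 0.28 in the other media. Its NTg days overlapped, and the gene is near the lower end of what was tested.

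GABA-A receptor genes moved both ways. Of 14 tested in NTg medium 5 rose (35.7%) and 4 fell (28.6%), near the 30.8% of all genes that passed in each direction. Gabra2, the alpha subunit common in embryonic motor neurons, ran from 17.7 to 24.0 CPM on day 1 (median 21.9) and from 42.0 to 49.1 CPM on day 3 (median 46.0). The days were well apart in all 3 media, and Gabra2 rose by 1.11 ± 0.08 in NTg (edgeR adjusted p = 5.4e-15), 1.26 ± 0.08 in mSOD1 and 0.96 ± 0.08 in wtSOD1 medium. Its share of the reads of all GABA-A alpha subunit genes was 28.4% ± 2.8 on day 1 and 45.5% ± 2.6 on day 3 in NTg medium. Gabra4 (0.83 ± 0.20), Gabrg1 (0.41 ± 0.11) and Gabrb1 (0.29 ± 0.07) rose in all 3 media, and Gabre, near 1 CPM, rose in NTg medium (0.70 ± 0.28) and did not pass in the others. Gabrb2 fell from 69.9 ± 7.0 to 42.3 ± 4.7 CPM in NTg medium, and fell without overlap between days in all 3 media. Gabra3 and Gabra5 did not pass in NTg medium, at 20.1 and 19.1 CPM and at 26.2 and 26.9 CPM.

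Genes that anchor inhibitory receptors fell or did not pass. In NTg medium 6 of 9 were down, beside 30.8% of all genes, with a median of -0.37. Iqsec3 fell by 0.96 ± 0.08, Lhfpl4, a GABA-A receptor partner, by 0.68 ± 0.07 and Nlgn2 by 0.60 ± 0.07. The chloride exporter gene Slc12a5 fell from 75.9 to 61.1 CPM and the importer gene Slc12a2 from 106 to 87.9 CPM. For the metabotropic GABA-B receptor, Gabbr1 fell from 363 ± 27 to 233 ± 26 CPM, and 3 of 6 genes of this list fell and 1 rose.

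Of the 5 glycine receptor genes 3 rose in NTg medium and none fell, beside 30.8% of all genes in each direction. Glra2 ran from 42.6 to 65.3 CPM on day 1 and from 55.5 to 75.6 CPM on day 3. The ranges overlapped, the level was higher in 6 of 6 pairs, and Glra2 rose by 0.43 ± 0.10 (edgeR adjusted p = 0.000589), by 0.70 ± 0.10 in mSOD1 and by 0.25 ± 0.10 in wtSOD1 medium. Glra3 rose by 0.88 ± 0.17 and Glrb, the subunit that binds gephyrin, by 0.37 ± 0.07, and both rose in the other media as well. Glra1, the adult alpha subunit, stood at 5.44 ± 1.5 and 4.55 ± 1.6 CPM in NTg medium and did not pass. In mSOD1 medium it fell by 0.55 ± 0.23. Its share of Glra1 and Glra2 reads was 9.78% ± 2.9 on day 1 and 6.43% ± 2.7 on day 3 in NTg medium.

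Neuronal nicotinic genes fell together. In NTg medium 5 of 6 tested passed and all 5 were lower, in wtSOD1 medium the same 5, and in mSOD1 medium 4 of them, without Chrna7. Over all genes 30.8% were lower in NTg, 30.7% in wtSOD1 and 28% in mSOD1 medium. Chrnb2 ran from 129 to 153 CPM on day 1 (median 143) and from 68.6 to 97.0 CPM on day 3 (median 84.0). The 2 days did not overlap, and Chrnb2 fell by 0.79 ± 0.08 (edgeR adjusted p = 4.54e-11). Its exons overlap those of Adar on the other strand, and Adar fell as well. Chrna4 fell by 0.54 ± 0.07, Chrna7, the homomeric calcium-permeable receptor, by 0.47 ± 0.09 and Chrna3 by 0.52 ± 0.12. The accessory subunit Chrna5 fell most, from 11.6 ± 0.93 to 5.07 ± 1.3 CPM (log2 -1.17 ± 0.13), and Chrnb4, near 2 CPM, did not pass.

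Of the 5 endplate genes only Chrnb1 could be tested, and it went the other way. Its NTg libraries ran from 2.59 to 5.20 CPM on day 1 and from 8.69 to 11.5 CPM on day 3, with no overlap, and it rose by 1.27 ± 0.12 (edgeR adjusted p = 1.21e-11), by 0.98 ± 0.12 in mSOD1 and by 1.17 ± 0.12 in wtSOD1 medium. Beside it, the summed skeletal muscle markers were at 8.30 to 21.6 CPM on day 1 and 8.99 to 11.7 CPM on day 3, with 0 of 5 tested rising, and Myog had 0 and 2 reads in the 6 NTg libraries of each day. Among partners of nicotinic receptors 6 of 10 rose and 2 fell in NTg medium, beside 30.8% of all genes in each direction. Lrp4, the agrin receptor, went from 8.37 to 46.5 CPM, the nicotinic modulator Lynx1 from 10.2 to 38 CPM and its relative Lypd6 from 8.3 to 23.2 CPM.

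Of 18 genes for making and clearing the transmitters 4 rose and 10 fell in NTg medium, beside 30.8% of all genes in each direction. Slc18a3, the vesicular acetylcholine transporter, fell from 158 ± 19 to 57.9 ± 12 CPM and the glutamate transporter gene Slc1a2 from 69.6 ± 14 to 34.95 ± 2.4 CPM. Gad1, which makes GABA, fell from 20.7 to 11.0 CPM, and Slc17a6, a vesicular glutamate transporter, was at 6.02 and 5.37 CPM.

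Summed over each class, the level in NTg medium was lower on day 3 for AMPA (738.5 ± 53 to 537.9 ± 44 CPM), kainate (628.5 ± 25 to 486.2 ± 34 CPM) and neuronal nicotinic genes (284.9 ± 13 to 178.4 ± 17 CPM), with no overlap between days. GABA-A genes summed to 508.0 ± 34 and 453.3 ± 25 CPM, metabotropic genes to 79.9 ± 9.0 and 77.0 ± 8.1 CPM, and glycine receptor genes to 94.1 ± 11 and 121.4 ± 8.2 CPM. The log2 ratio of the means ran from -0.67 for neuronal nicotinic to 0.37 for glycine receptors, and to 1.26 for the endplate genes, which are nearly Chrnb1 alone. In mSOD1 medium the sum of all 66 genes was 2440 CPM on day 1 and 2265 CPM on day 3, and in NTg medium 2516 and 1997 CPM. No test is given for these sums.

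**Figure D4:**
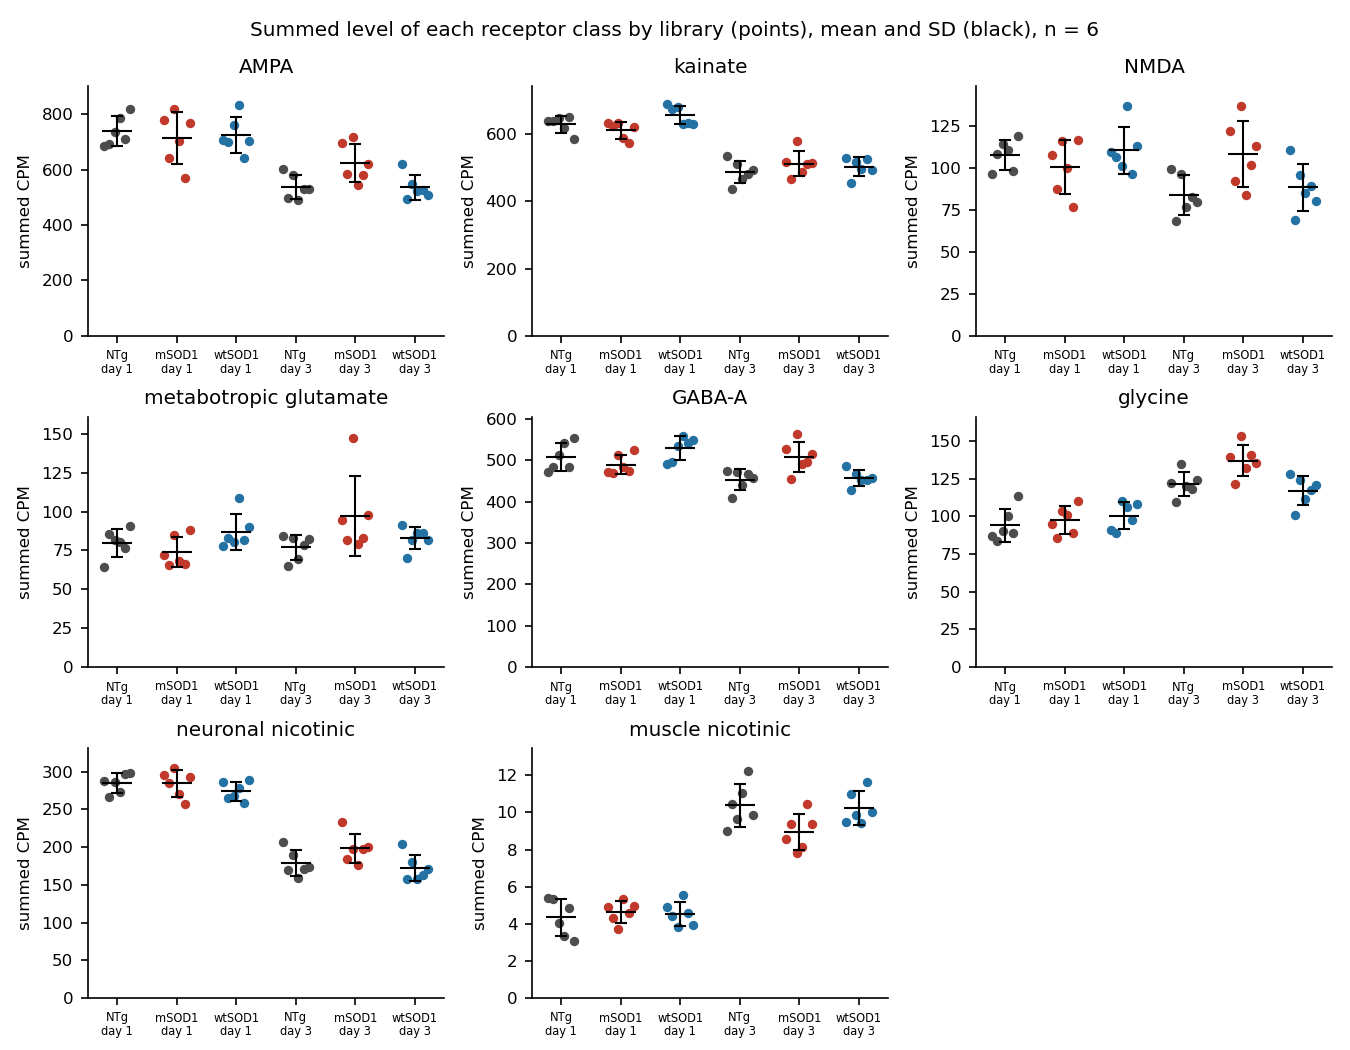
Summed CPM of 8 receptor classes in the 36 libraries (points) by medium and day, with the mean and SD of 6 libraries in black. On average AMPA, kainate and neuronal nicotinic sums are lower on day 3 and glycine and muscle nicotinic sums higher. The days overlap for AMPA and kainate in mSOD1 medium and for glycine in NTg and wtSOD1 medium. For metabotropic receptors 1 mSOD1 library of day 3 stands at 147.6 CPM.

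The study's question was whether medium from mSOD1 astrocytes changes the neurons. On day 1 no receptor gene passed between mSOD1 and NTg medium (0.421% of all genes did), between wtSOD1 and NTg (0.0263%) or between mSOD1 and wtSOD1 (1.01%). At an unadjusted edgeR p under 0.05 there were 2, 4 and 8 of the 51 members, beside 1058, 867 and 1695 of the 15207 genes tested. DESeq2 called 0, 0 and 1 members, and limma on the deposited log2-like values also 0, 0 and 1. Closest was Gabra2, at 19.6 ± 2.9 CPM in mSOD1 and 24.5 ± 1.9 CPM in wtSOD1 medium (log2 -0.31 ± 0.08, edgeR adjusted p = 0.051), which passed with the replicate block (-0.31 ± 0.08, edgeR adjusted p = 0.0256).

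On day 3, 5 of 51 members were higher in mSOD1 than in NTg medium and none lower, beside 2.91% of all genes (2.23% higher and 0.684% lower). Among them were the GABA-A subunit Gabrg3 (0.65 ± 0.17, edgeR adjusted p = 0.0301), Grin2a (0.69 ± 0.18, 0.0311), Grid1 (0.46 ± 0.12, 0.0353) and Grm7 (0.50 ± 0.14, 0.0467). Against wtSOD1 medium 6 members were higher and none lower, beside 3.39% of all genes (2.49% higher and 0.901% lower). Among them were Gabrg3 (0.72 ± 0.17, edgeR adjusted p = 0.0108), Glra2 (0.39 ± 0.10, 0.0231), Chrnb2 (0.30 ± 0.08, 0.0266), Grin2a (0.64 ± 0.18, 0.0379) and, at the threshold, Glra3 (0.52 ± 0.15, 0.05). Both comparisons share the mSOD1 libraries. Between wtSOD1 and NTg medium no member passed on day 3 (0.0986% of all genes did), 1 had an unadjusted edgeR p under 0.05, and DESeq2 and limma called 0.

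These calls depended on single libraries and on the tool. Leaving out all libraries of any 1 experiment left 0 to 2 members called against NTg and 0 to 6 against wtSOD1 medium. DESeq2 called 10 and limma 1 against NTg medium. The mSOD1 library of day 3 with number 3 was the highest of its group for 27 of the 51 members, or 52.9%. It was highest for 16.7% of all genes tested. By this count it did not stand alone. Library 4 of wtSOD1 day 1 was highest for 26 members and library 1 of wtSOD1 day 3 for 25. Grin2a was at 32.6 CPM in mSOD1 library 3 and at 15.3 to 18.7 CPM in the other 5 mSOD1 libraries. Those 5 still lay above all NTg libraries (9.88 to 14.9 CPM). Gabrg3 was at 22.2 CPM in mSOD1 library 3 and at 7.30 to 11.6 CPM in the others, beside 7.32 to 8.60 CPM in NTg medium. Grm7 was at 65.8 CPM in it and at 30.0 to 42.5 CPM in the others, beside 23.9 to 31.5 CPM in NTg medium. Without this library, a setting added after seeing the data, none of the 51 passed against NTg medium (0.51% of all genes did) and 1 did against wtSOD1 medium (1.57% of all genes), Chrnb2 (0.32 ± 0.08, edgeR adjusted p = 0.0313).

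The length of a gene in the genome, looked at after these values were seen, went with its level in library 3. Members that span over 300 kb of genome (16 genes) had a median log2 ratio of 0.70 in it against the median of the other 5 libraries, and members of up to 100 kb (23 genes) 0.10. In the other 35 libraries the median for long members lay between -0.34 and 0.32. By the Spearman rank correlation of span with this ratio over the members, library 3 (0.59) was not alone. Library 6 of mSOD1 day 1 had 0.61, library 1 of NTg day 1 -0.58 and library 6 of wtSOD1 day 3 -0.55. Over all 14460 genes with a span the median in library 3 was 0.34 for those over 300 kb and -0.03 for those up to 100 kb. All 5 members that passed against NTg medium span over 300 kb, among 16 such members tested. Over all genes, 78 of 542 over 300 kb were higher and 0 lower, and of 12145 up to 100 kb 137 were higher and 97 lower. The median log2 difference from NTg medium was 0.33 for long and 0.05 for short members, beside 0.19 and -0.02 over all genes. Without library 3 the medians were 0.18 and 0.01 for members and 0.12 and -0.02 for all genes. What part gene length had in the result was not tested.

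**Figure D5:**
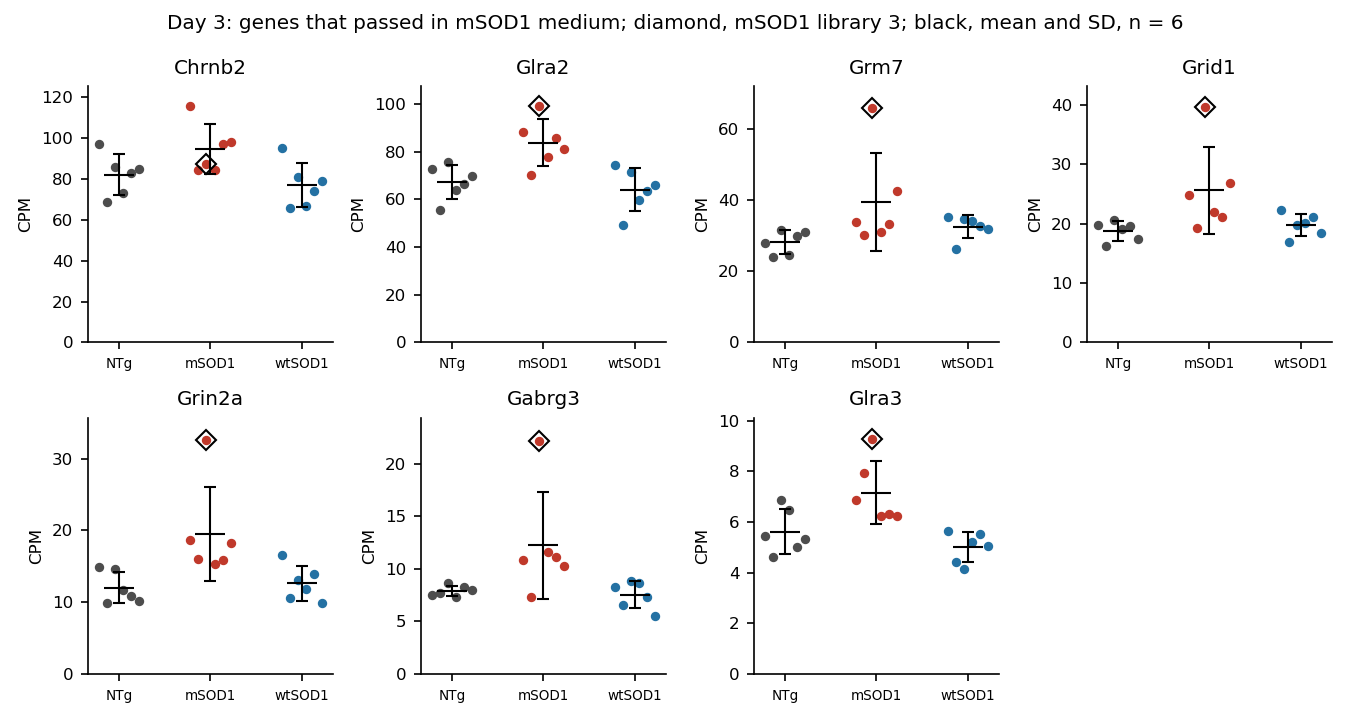
CPM on day 3 of 7 receptor genes that passed between mSOD1 and NTg or wtSOD1 medium, by library (points), with the mean and SD of 6 libraries in black and a diamond around mSOD1 library 3. That library is the highest mSOD1 point in 6 of the 7 panels, the exception being Chrnb2.

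With experiment number as the replicate block more members passed on day 3, 11 against NTg and 13 against wtSOD1 medium, and so did more of all genes, 9.94% and 9.32%. This fit kept mSOD1 library 3, and no block fit was run without it. Against NTg medium 8 of the 16 members over 300 kb were higher, 2 of 12 over 100 to 300 kb and 1 of 23 up to 100 kb. Over all genes 174 of 542 over 300 kb were higher and 503 of 12145 up to 100 kb. Added against NTg were Glra2 (0.31 ± 0.07, edgeR adjusted p = 0.00256), Gria4 (0.33 ± 0.07, 0.00367), Chrnb2 (0.20 ± 0.06, 0.0204), Chrna7 (0.24 ± 0.08, 0.0408), Grin2b (0.57 ± 0.18, 0.0414) and Grik2 (0.35 ± 0.11, 0.0442), all higher in mSOD1 medium. Without the block Gria4 and Glra2 were higher in 6 of 6 pairs, at 171 ± 26 and 136 ± 19 CPM and at 83.6 ± 9.8 and 67.3 ± 7.1 CPM. Beside these values, 2 of 9 pan-neuronal markers were higher in mSOD1 than in NTg medium on day 3 (median 0.23), 1 of 10 motor neuron markers was higher (0.18), and 1 of 8 progenitor and 2 of 7 mesenchyme markers were lower (-0.25 and -0.36). Over all genes, 2.23% were higher and 0.684% lower in the fit without the block, which gave these marker counts. Pan-neuronal markers summed to 5018 to 7285 CPM in mSOD1 and 4133 to 6363 CPM in NTg medium. The part of these shifts in the receptor differences was not tested.

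Whether the difference between days depended on the medium was tested as an interaction. No member passed for mSOD1 against NTg (0.23% of all genes did), mSOD1 against wtSOD1 (0.592%) or wtSOD1 against NTg medium (0.0197%). At an unadjusted edgeR p under 0.05 there were 15, 21 and 1 of the 51 members, beside 2156, 2293 and 433 of the 15207 genes tested. DESeq2 called 0, 1 and 0 members, and limma 0 in each. In mSOD1 medium the log2 difference between days was above that in NTg medium for 40 of 51 members. Over all genes it was above for 7559 of 15207. The median interaction was 0.20 for members and -0.00 over all genes. These values include mSOD1 library 3 of day 3. The 8 members that fell in NTg and wtSOD1 medium and did not pass in mSOD1 medium, among them Grik1, Grik5, Grin1, Grin2b, Grid1, Grm7 and Chrna7, had no interaction past the threshold in this fit, while Grid1 and Grm7 were among those higher in mSOD1 than in NTg medium on day 3. With the replicate block 5 interactions passed against NTg, beside 2.67% of all genes, among them Gria4 (0.42 ± 0.10, edgeR adjusted p = 0.0242), Gabrg3 (0.78 ± 0.22, 0.0478), Grid1 (0.56 ± 0.16, 0.0485) and Grm7 (0.61 ± 0.17, 0.0497). Against wtSOD1 medium 9 passed with the block, beside 3.94% of all genes, led by Glra2 (0.44 ± 0.10, edgeR adjusted p = 0.00679).

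Among partner genes on day 3, named here after their values were seen, 4 of 15 auxiliary subunit genes were higher in mSOD1 than in NTg medium (Cacng5, Cnih3, Shisa6 and Neto1) with a median of 0.18. So were Dlg2 of the 20 scaffold genes, Iqsec3 and Lhfpl4 of the 9 genes of the GABA and glycine postsynapse and Gabbr2 of the 6 GABA-B genes. No partner gene was lower, no nicotinic partner of 10 and no deaminase of 3 passed, and none of these lists held a gene that passed between wtSOD1 and NTg medium. Of all genes tested, 2.23% were higher in mSOD1 than in NTg medium and 0.684% lower, with a median of -0.01. Values without mSOD1 library 3 are not given for these partner genes.

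Promoter sequence from RefSeq (GRCm38.p6, 250 bases before to 50 after the start) was matched for 46 of the 66 genes. The window of Gria2 is shown because it holds a core of the RE1 element, the binding sequence of the neuronal gene repressor REST, spelled AGCACC, any 2 bases, then GGACAGC, and searched on both strands. It was found in 10 of 32851 promoter windows, or 0.0304%, and in no other receptor gene. The Gria2 window lies at chr3:80802786-80803085 on the minus strand and holds the element on the opposite strand, in capitals.
Gria2 promoter: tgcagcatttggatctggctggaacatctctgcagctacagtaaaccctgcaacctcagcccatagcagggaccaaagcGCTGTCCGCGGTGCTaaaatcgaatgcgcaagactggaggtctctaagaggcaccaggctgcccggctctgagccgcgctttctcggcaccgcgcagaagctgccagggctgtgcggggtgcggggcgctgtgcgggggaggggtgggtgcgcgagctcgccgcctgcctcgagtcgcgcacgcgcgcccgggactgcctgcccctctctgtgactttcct
Its parts were also searched, the left part TTCAGCACC, found in 0.371% of windows, and the right part GGACAGC, which the core contains, found in 6.56%. Of the 54 windows of the 46 matched receptor genes 4, or 7.41%, held the right part, those of Gria2, Grm2, Glra2 and Glrb, and that of Grm2 also held the left part. Between days Gria2 and Grm2 fell and Glra2 and Glrb rose in all 3 media. A match of letters does not show binding, and no binding was measured here.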

How the data were processed

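For each of 36 libraries the authors deposited the read count of every gene and, beside it, a log2-like value. Per the submitters' processing notes, TopHat 1.3.3, DESeq and the mm9 build were used; the sources used here name no counter or annotation and do not say whether strand was kept. The test was edgeR 4.0.16 under R 4.3.3 (quasi-likelihood, TMM scaling, filterByExpr by group, robust) in 1 fit of 6 group means, with Benjamini-Hochberg adjustment over 15207 genes and a threshold of 0.05. Standard errors are the log2 difference over the root of F. The deposited log2 values entered only a limma 3.58.1 alternative, and DESeq2 1.42.0 was another. CPM used TMM-scaled totals. Before scaling, library totals ran from 4.39 to 88.9 M reads (median 13.3), so genes with few reads are the least precise. 1798 genes had no read. The 7 rows without a symbol were not removed before the fit and were left out only where genes were looked up by symbol. No libraries of a group were alike within sampling noise.

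Exon lengths, overlaps and pore sequences come from GENCODE M21 (GRCm38) and promoters from RefSeq (GRCm38.p6), and no mm9 coordinate was used. The members and lists were chosen with earlier results of these data known. Named were members that passed between media, the 4 with the highest level per kb in each class, those with the largest day differences, the AMPA subunits, and up to 3 genes of each partner list by lowest p. The labels' experiment number pairs libraries: deviations of same-numbered libraries correlated by 0.132 on day 1 and 0.24 on day 3 on average, and by 0.037 across days. Some genes of these classes and lists enter the counts and sums but are not reported here. Scripts were tested on simulated data.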

Additional observations from a re-analysis of the deposited data

Results flagged for a closer look

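Of 138 sets of 6 libraries examined, 9 (6.52%) held a library far from the other 5 by Dixon's criterion, which chance gives in about 1 in 20. The mSOD1 library 3 of day 3 stood high for Grin2a at 32.58 CPM (others 15.3 to 18.7), Grid1 at 39.57 CPM (19.3 to 26.8), Gabrg3 at 22.18 CPM (7.30 to 11.6) and Grm7 at 65.79 CPM (30.0 to 42.5). It also stood high for the metabotropic sum at 147.6 CPM (79.3 to 97.8).

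On day 1, Grid1 was at 40.79 CPM in NTg library 6 (others 30.9 to 33.5) and Grm7 at 29.73 CPM in NTg library 1 (40.4 to 45.9). On day 3, Grm7 was at 26.2 CPM in wtSOD1 library 2 (31.9 to 35.1), and the Glra1 share of Glra1 and Glra2 reads was 11.63% in NTg library 2 (3.47 to 6.44%).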

How the results depend on the processing

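Counts of members that passed between days stayed within 1.5 times under every alternative run, and no result that had passed its test changed direction. Between mSOD1 and wtSOD1 medium on day 1 the count was 0, and 1 with DESeq2, with limma on the log2-like column, with the replicate block and without mSOD1 library 3 of day 3, 5 with the replicate block within day, and 0 to 1 without 1 experiment. Between mSOD1 and NTg medium on day 3 it was 5, and 3 with no filter, 10 with DESeq2, 1 with limma, 11 with the replicate block, 20 with the block within day, 0 without library 3 and 0 to 2 without 1 experiment. Between mSOD1 and wtSOD1 on day 3 it was 6, and 13 with the block, 16 with the block within day, 1 without library 3 and 0 to 6 without 1 experiment. Interactions against NTg were 0, and 5 with the block and 17 with the block within day. Those against wtSOD1 were 0, and 1 with DESeq2, 9 with the block, 21 with the block within day and 0 to 2 without 1 experiment. The causes were not tested.

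The day 1 difference in the Gria2 share between mSOD1 and NTg, 1.49 points, did not pass with the replicate block (1.49) or without NTg library 6 and wtSOD1 library 4 of day 1 (1.487), and was 1.063 to 1.814 without 1 experiment, passing in 2 of 6 such fits. Against wtSOD1 it was 1.723 to 1.956 on day 1, passing in 2 of 6, and 2.067 to 2.63 on day 3, passing only without experiment 1. With the replicate block the day 3 differences of wtSOD1 from NTg (-2.106) and of mSOD1 from wtSOD1 (2.383) passed. As a share of receptor reads, the log2 ratio of days in NTg medium was -0.1227 for AMPA, 0.1725 for GABA-A, -0.02915 for NMDA, -0.2183 for delta, 0.7069 for glycine, -0.03979 for kainate, 0.2796 for metabotropic, 1.591 for muscle and -0.3435 for neuronal nicotinic genes, so the sign for GABA-A and metabotropic genes differed from that of summed CPM (-0.1641 and -0.05371). Per kb of coding sequence the day 1 shares were 24.1% for AMPA, 30.18% for GABA-A, 2.68% for NMDA, 2.03% for delta, 5.835% for glycine, 19.62% for kainate, 2.44% for metabotropic and 0.256% for muscle nicotinic genes. Settings without library 3 and per kb of coding sequence were chosen after seeing the data. Depth limits the 15 genes that were not tested.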
